A study of Mus musculus with 4 samples.

Results

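Among the cytokine receptors of blood cells, 7 genes were followed across 4 microarrays: Csf2ra, Csf2rb, Csf2rb2, Il3ra, Csf3r, Epor and Il7r. They were chosen by symbol, and all 7 were measured, each by a single probe set, among 19938 genes on the array. The tested marrow was leukemic whole bone marrow labelled Hes1 null (MLL-AF9/Hes1-/-, 2 arrays), set against leukemic whole bone marrow labelled wild type (MLL-AF9/Hes1+/+, 2 arrays). Both genotypes came from C57BL/6 mice and carried MLL-AF9, a gene fusion that causes myeloid leukemia. The labels do not give the age of the mice, how MLL-AF9 was introduced, how many mice stood behind an array or how many host cells were left in the marrow. Hes1 is a Notch target gene whose product represses transcription, and the study asked whether Hes1 carries the restraint of Notch on this leukemia.

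These receptors bind the growth factors that keep progenitors alive and steer them into lineages. The products of Csf2ra and Il3ra are ligand-binding alpha chains for GM-CSF and interleukin-3, and both pair with the beta chain encoded by Csf2rb, which also serves the interleukin-5 receptor. Mice carry an additional beta chain gene, Csf2rb2, whose product works with interleukin-3. Csf3r encodes the G-CSF receptor that drives neutrophil production, Epor encodes the erythropoietin receptor of red cell precursors, and Il7r encodes the interleukin-7 receptor alpha chain of lymphoid cells. Bound receptors activate JAK kinases, which phosphorylate STAT proteins, and genes such as Cish and the Socs family limit the signal.

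The promoters of Csf3r, Csf2rb2 and Epor are shown because Csf3r had the most negative difference of the 7 genes, Csf2rb2 the most positive and Epor the smallest. Each sequence is the 250 bases before the annotated start, written 5′ to 3′ on the gene's own strand, from RefSeq on build GRCm38.p6. Capitals mark matches on either strand to 4 motifs. These are the N box CACNAG and the class C site CACGNG, both known as binding sequences of Hes1, the GATA motif AGATAA and the PU.1 core GAGGAA. Csf3r lay at chr4:126024409-126024658 on the plus strand, Csf2rb2 at chr15:78305722-78305971 on the minus strand and Epor at chr9:21963577-21963826 on the minus strand.
Csf3r: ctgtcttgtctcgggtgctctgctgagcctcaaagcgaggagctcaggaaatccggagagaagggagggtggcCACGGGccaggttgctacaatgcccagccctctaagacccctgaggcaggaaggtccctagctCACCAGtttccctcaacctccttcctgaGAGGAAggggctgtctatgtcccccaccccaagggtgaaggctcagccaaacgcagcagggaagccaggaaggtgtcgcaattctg
Csf2rb2: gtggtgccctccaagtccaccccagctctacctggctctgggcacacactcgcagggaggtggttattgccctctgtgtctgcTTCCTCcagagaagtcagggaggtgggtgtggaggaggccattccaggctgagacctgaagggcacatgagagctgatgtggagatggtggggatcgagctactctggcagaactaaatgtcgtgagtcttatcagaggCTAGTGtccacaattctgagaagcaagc
Epor: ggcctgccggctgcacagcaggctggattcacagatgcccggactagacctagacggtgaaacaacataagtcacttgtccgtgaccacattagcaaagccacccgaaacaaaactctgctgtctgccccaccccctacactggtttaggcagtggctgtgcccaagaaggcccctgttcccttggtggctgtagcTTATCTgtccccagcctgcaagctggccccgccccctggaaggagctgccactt

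In the Csf3r promoter the capitals are, in order, a class C site, an N box and a PU.1 core. The Csf2rb2 promoter held a PU.1 core and an N box, both on the opposite strand, and the Epor promoter held only the GATA motif, also on the opposite strand. Promoters matched by symbol for 6 of the 7 genes, all but Csf2rb. An N box lay in 4 of the 6 (Csf2ra, Csf2rb2, Csf3r and Il7r), against 36.7% of all 32851 promoters in the same window. A class C site lay in 3 (Csf2ra, Csf3r and Il3ra), against 23.5% of all promoters, and in Csf2ra 1 site of CACGAG matched both motifs. The PU.1 core lay in 3 (Csf2ra, Csf2rb2 and Csf3r), against 23.3% of all promoters, and the GATA motif in Epor alone of the 6, against 9.99%. A match describes the letters and not binding.

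Levels are log2 intensities of a probe set, and each difference (Hes1-null minus wild type) is followed by its SE and 95% interval from limma's moderated fit over all genes, with n = 2 arrays in each genotype. The number of arrays limits the precision, and levels of different probe sets are not compared. The array medians ran from 65.0 to 67.3 (linear intensity). Hes1-null arrays were less alike than wild-type arrays (r = 0.982 and r = 0.995 across genes, which are not independent replicates). Hes1-null replicate 2 lay at least 1 below all the other arrays at 197 genes, against 22 such genes for Hes1-null replicate 1 and 6 for each wild-type array. Xist, the RNA of the inactive X chromosome, lay at 7.25 on that array and at 11.73 on Hes1-null replicate 1, against 12.00 and 11.82 on the wild-type arrays. The probe set of Hes1 itself did not check the labels, with 5.43 and 5.84 on the Hes1-null arrays and 5.59 and 5.79 on the wild-type arrays. Of the labelled tissue's markers, the leukocyte gene Ptprc lay at 10.38 and 10.50 on Hes1-null arrays and at 10.39 and 10.41 on wild-type arrays, and the myeloid integrin gene Itgam at 9.37 and 10.08 on Hes1-null arrays and at 9.91 and 10.40 on wild-type arrays. Hoxa9, a target of MLL fusion proteins, lay at 10.50 and 10.78 in Hes1-null marrow and at 10.56 and 10.40 in wild-type marrow. The 10 leukemic and progenitor markers had a median difference of 0.04 and summed linear intensities of 18970 and 14390 on Hes1-null arrays, against 24950 and 24320 on wild-type arrays. None passed by limma, but Mpo, Elane and Kit, genes of granule proteins and of a progenitor receptor, differed by -1.83, -1.61 and -1.60, and the receptor gene Flt3 by 1.94. Of the 10, the genotypes did not overlap for 3 lower genes (Mpo, Elane and Kit) and 2 higher genes (Flt3 and Hoxa10). Over all genes, 20.6% did not overlap and were lower, and 17.4% did not overlap and were higher.

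With limma, 0 of the 7 receptor genes had an adjusted p under 0.05, where 29 of the 19938 genes did (0.145% of all genes). Only Csf3r was past an unadjusted p of 0.05 among the 7, and it was lower in Hes1-null marrow; of all genes 4.78% were lower, 3.51% higher and 8.29% either at that p. The genotypes did not overlap for 4 of the 7 (Csf2ra and Csf3r lower, Csf2rb and Csf2rb2 higher), against 38.0% of all genes, 20.6% lower and 17.4% higher. The difference was larger than the gap between arrays of either genotype for 2 of the 7, Csf2ra and Csf3r, against 25.2% of all genes. Of the 7 differences, 4 were negative and 3 positive, where 53.6% of all genes had a negative one, and their median was -0.11 against -0.02 over all genes. They ran from -0.51 for Csf3r to 0.45 for Csf2rb2, so that 0 of the 7 had genotype means at least 2-fold apart, against 2.05% of all genes.

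**Figure D1:**
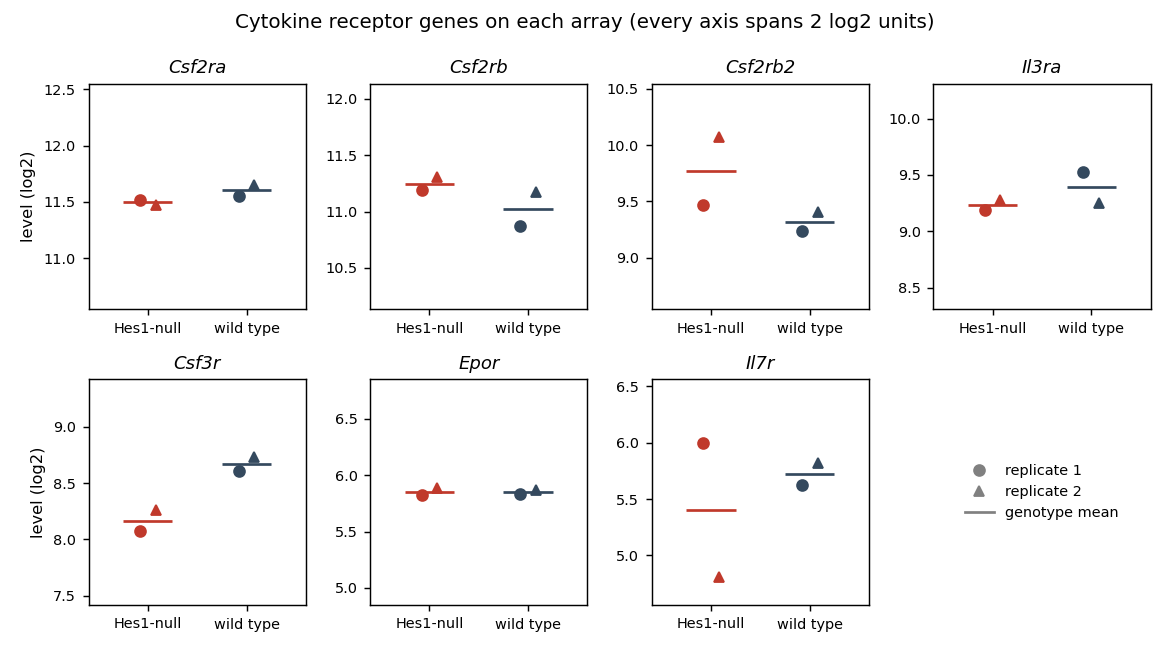
Log2 level of each of the 7 cytokine receptor genes on each array, Hes1-null in red and wild type in dark blue, with circles for replicate 1, triangles for replicate 2 and a bar at the genotype mean; every vertical axis spans 2 log2 units. The genotypes are separate for Csf2ra, Csf2rb, Csf2rb2 and Csf3r, and the widest spread is that of Il7r between the Hes1-null arrays, 6.00 and 4.81.

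Csf3r, the G-CSF receptor gene, lay at 8.08 and 8.26 on the Hes1-null arrays, against 8.61 and 8.73 on the wild-type arrays. Both Hes1-null arrays were below both wild-type arrays, and the arrays of each genotype lay close together, 0.18 apart in Hes1-null and 0.12 apart in wild type. The difference was -0.51 ± 0.17 (95% interval -0.94 to -0.07), a level 0.705 times that of wild type, and limma gave a p of 0.0292 before adjustment and 0.529 after it. With 1 array left out the difference stayed between -0.60 and -0.41. In a bulk sample, fewer cells of a type and less RNA per cell cannot be told apart.

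Markers of maturing neutrophils, the cells in which the G-CSF receptor is prominent, were mostly lower in Hes1-null marrow, as Csf3r was. Of the 13 listed, 12 were measured, and 10 of these had a negative difference, with a median of -1.15 and a range from -2.77 to 0.95. The summed linear intensity of the 12 was 10030 and 13130 on the Hes1-null arrays, against 14600 and 23620 on the wild-type arrays. Ltf, the lactoferrin gene, fell to 6.23 and 6.48 in Hes1-null marrow, against 8.87 and 9.38 in wild-type marrow (difference -2.77 ± 0.23, adjusted p = 0.0398 by limma), and it was the sole marker of this list past the threshold. Camp, which encodes an antimicrobial granule peptide, lay at 8.59 and 8.66 on Hes1-null arrays and at 10.44 and 12.07 on wild-type arrays. Not all neutrophil genes were lower: Mmp8 lay at 9.73 and 9.57 on Hes1-null arrays, above 9.30 and 8.09 on wild-type arrays. The genotypes overlapped for 3 of the 12, Ngp (-0.23), Lcn2 (-0.30) and Cxcr2 (0.07), the receptor gene of neutrophil chemokines. The part of these cells in the Csf3r value was not tested.

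Csf2ra, the gene of the GM-CSF receptor alpha chain, was a bright probe set that hardly varied. It lay at 11.52 and 11.47 on Hes1-null arrays, against 11.55 and 11.65 on wild-type arrays. Hes1-null was the lower genotype on every array, by a difference of -0.11 ± 0.10 (95% interval -0.37 to 0.15, adjusted p = 0.863 by limma). As a ratio of Hes1-null to wild type, that interval ran from 0.775 to 1.11.

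Il3ra, the alpha chain gene for interleukin-3, lay at 9.18 and 9.28 on Hes1-null arrays, against 9.53 and 9.25 on wild-type arrays. The genotypes overlapped, since Hes1-null replicate 2 was above wild-type replicate 2. The difference was -0.16 ± 0.17 (95% interval -0.59 to 0.28, adjusted p = 0.890 by limma). Without wild-type replicate 1 it was -0.02, so most of it rested on that array.

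Csf2rb, the shared beta chain gene, lay at 11.19 and 11.31 on Hes1-null arrays, against 10.87 and 11.18 on wild-type arrays. The nearest arrays of the genotypes almost touched, and the wild-type arrays were 0.31 apart, more than the difference of 0.22 ± 0.15 between genotypes (95% interval -0.14 to 0.59, adjusted p = 0.782 by limma). Without wild-type replicate 1 the difference was 0.07, and without wild-type replicate 2 it was 0.38.

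Csf2rb2, the beta chain gene of the interleukin-3 receptor, had the most positive difference of the 7. It lay at 9.46 and 10.07 on Hes1-null arrays, against 9.24 and 9.40 on wild-type arrays. Hes1-null replicate 2 stood well above the rest, and Hes1-null replicate 1 was just above wild-type replicate 2. The difference was 0.45 ± 0.24 (1.36-fold, 95% interval -0.16 to 1.05, adjusted p = 0.716 by limma), smaller than the 0.61 between the Hes1-null arrays. Leaving out Hes1-null replicate 2 gave 0.14, and leaving out Hes1-null replicate 1 gave 0.75. In RefSeq, Csf2rb2 and Csf2rb are neighbours on chromosome 15 with 0 protein-coding genes between them. The 2 genes are close paralogs, so probes for one may bind RNA of the other, which was not tested.

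**Figure D2:**
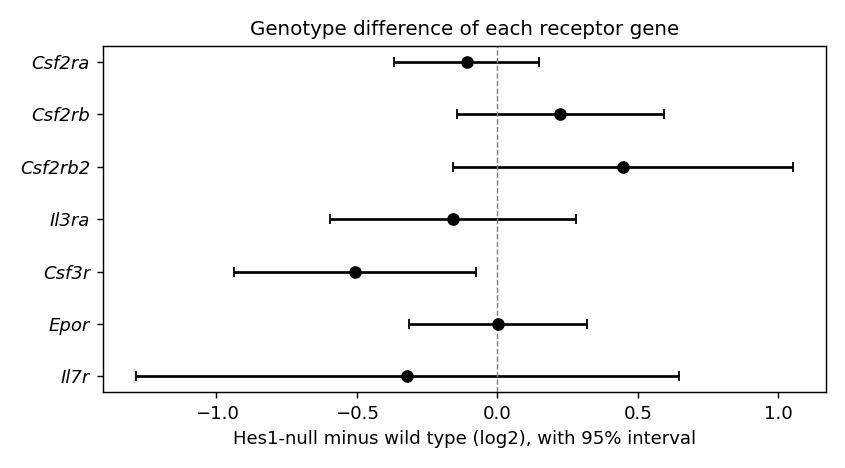
Difference between genotypes on the log2 scale (horizontal axis) for each receptor gene, with points at Hes1-null minus wild type and bars for the 95% interval of limma's moderated fit (2 arrays per genotype). The interval of Csf3r, -0.94 to -0.07, is the only one of the 7 that leaves out 0, before any adjustment over genes.

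Alpha and beta chains were also set against each other within each array, as the log2 level of one minus that of the other; the size of such a ratio depends on the probes, and only its change between arrays can be read. The ratio of Csf2ra to Csf2rb was 0.33 and 0.17 on Hes1-null arrays, against 0.68 and 0.48 on wild-type arrays. Both Hes1-null arrays were below both wild-type arrays, and the means differed by -0.33. The ratio of Il3ra to Csf2rb was -2.004 and -2.029 on Hes1-null arrays, against -1.34 and -1.93 on wild-type arrays, a mean difference of -0.38 that rested mostly on wild-type replicate 1. The ratio of Csf2rb to Csf2rb2 was 1.72 and 1.23 on Hes1-null arrays, against 1.63 and 1.77 on wild-type arrays, where the genotypes overlapped. These ratios are given as a description and were not tested.

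**Figure D3:**
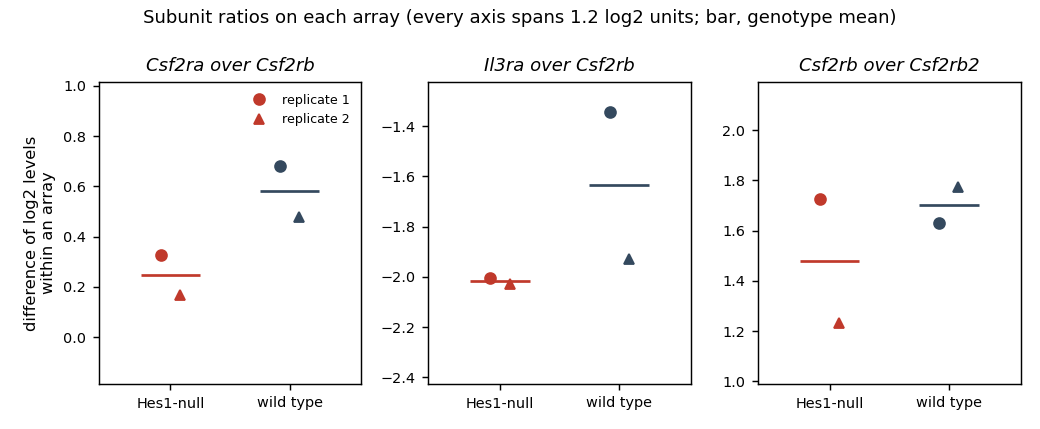
Difference of log2 levels within an array (vertical axes, each spanning 1.2 log2 units) for 3 pairs of receptor chains, Hes1-null in red left of wild type in dark blue, with circles for replicate 1, triangles for replicate 2 and bars at the genotype mean. Csf2ra over Csf2rb lies at 0.33 and 0.17 on the Hes1-null arrays, below 0.68 and 0.48 on the wild-type arrays, while the other pairs show a wide gap within 1 genotype.

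Epor, the erythropoietin receptor gene, was the steadiest of the 7. It lay at 5.82 and 5.88 on Hes1-null arrays, against 5.83 and 5.87 on wild-type arrays. All 4 arrays were within 0.062 of each other, and the difference was 0.003 ± 0.13 (95% interval -0.31 to 0.32, adjusted p = 0.998 by limma), which as a ratio ran from 0.804 to 1.25. The probe set was dim, at the 41.9th percentile of gene levels, which limits what it can show. It was above 4.09, the highest level of 4 Y-linked genes on any array, which served here as a mark of background. That mark is low: 18021 of all 19938 genes exceeded it on some array, so passing it does not show that a gene is expressed. Of the 12 erythroid markers listed, 8 were measured. Their summed linear intensity was 675 and 706 on Hes1-null arrays, against 873 and 726 on wild-type arrays, and their median difference was -0.14. Klf1, the master regulator gene of red cell development, lay at 5.65 and 5.29 on Hes1-null arrays and at 5.55 and 5.33 on wild-type arrays. Alas2, the heme synthesis gene of red cells, lay at 5.37 and 6.40 in Hes1-null marrow, below 6.88 and 6.87 in wild-type marrow.

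Il7r, the gene of the interleukin-7 receptor alpha chain, varied most between arrays. It lay at 6.00 and 4.81 on Hes1-null arrays, against 5.63 and 5.82 on wild-type arrays. The Hes1-null arrays were the highest and the lowest of the 4, so the genotypes overlapped. The difference was -0.32 ± 0.39 (95% interval -1.29 to 0.65, adjusted p = 0.902 by limma). Leaving out Hes1-null replicate 2 turned it to 0.27, and leaving out Hes1-null replicate 1 gave -0.91. Like Epor it was dim, at the 35.8th percentile of gene levels.

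Il7r was the sole receptor gene whose 4 arrays spanned at least 1 log2 unit, and the genes nearest to it in pattern were looked up by the root mean square distance of levels centred on each gene's mean over the 4 arrays. The 3 nearest were Trappc13 (distance 0.0241), which encodes a subunit of a vesicle transport complex, the mitochondrial arginyl-tRNA synthetase gene Rars2 (0.0263) and Rbbp9 (0.0270). Each was low on Hes1-null replicate 2, as for Trappc13 with 8.13 and 6.96 on Hes1-null arrays against 7.83 and 7.97 on wild-type arrays. As given above, 197 genes were at least 1 lower on that array than on all the others. With 4 arrays such likeness is a description only.

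Lymphoid markers were mostly dim and were read beside Il7r. The B lineage genes (10 of 11 measured) had a median difference of 0.05, and their summed intensity was 1801 and 1032 on Hes1-null arrays, against 1241 and 1238 on wild-type arrays. Most of that sum was Cd79b, at 10.48 and 9.50 on Hes1-null arrays and at 9.85 and 9.86 on wild-type arrays, and without it the sum was 375 and 310.0 on Hes1-null arrays, against 316 and 310.4 on wild-type arrays. Cd79a, a B cell receptor gene, lay at 5.20 and 4.30 on Hes1-null arrays, against 5.32 and 5.05 on wild-type arrays, and was one of 3 B lineage genes of the 10 that were lowest on Hes1-null replicate 2, where Il7r was lowest. T cell genes (9 of 11 measured) had a median difference of -0.34 and summed intensities of 568 and 529 on Hes1-null arrays, against 1139 and 800 on wild-type arrays. Without Cd28, at 6.14 and 6.07 on Hes1-null arrays and at 9.07 and 7.86 on wild-type arrays, the sums were 498 and 462 on Hes1-null arrays, against 599 and 567 on wild-type arrays. Cd3e lay at 6.80 and 6.62 on Hes1-null arrays and at 7.10 and 7.09 on wild-type arrays, while Cd3d lay at 5.41 and 5.25 on Hes1-null arrays and at 5.08 and 5.20 on wild-type arrays. Of the 9 T cell genes, 8 had a negative difference, where 53.6% of all genes did, and Cd3d was the sole positive one. NK and innate lymphoid genes (8 of 8 measured) had a median difference of -0.08, with Ncr1 at 3.93 and 4.04 on Hes1-null arrays, against 4.15 and 4.02 on wild-type arrays, and Klrb1c at 3.34 and 3.18 on Hes1-null arrays, against 3.72 and 3.70 on wild-type arrays, below the background mark on all 4. Their part in the Il7r values was not tested.

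Ligands of these receptors were dim, and no difference between genotypes was detected. All 7 were measured, the genotypes overlapped for all 7, and 0 passed an adjusted or an unadjusted p of 0.05 in limma's test. Differences ran from -0.15 to 0.10. For 5 of them no array exceeded the background mark of 4.09, so that Csf2, Il3, Il5, Il7 and Tslp were not shown to be above background. Epo, the erythropoietin gene, lay at 4.34 and 4.55 on Hes1-null arrays, against 4.51 and 4.68 on wild-type arrays (-0.15 ± 0.14), and Csf3, the G-CSF gene, at 5.77 and 6.10 on Hes1-null arrays, against 5.99 and 5.69 on wild-type arrays.

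Among chains that pair with these receptors, 2 of 3 were measured. Crlf2, which joins the Il7r product to form the receptor of TSLP, lay at 9.10 and 9.30 on Hes1-null arrays, against 8.95 and 9.001 on wild-type arrays. The genotypes did not overlap, but the difference of 0.23 ± 0.17 did not pass (adjusted p = 0.801 by limma). Il5ra, the interleukin-5 receptor alpha chain gene of eosinophils, stayed below the background mark on all arrays. The markers of eosinophils, basophils and mast cells (10 of 11 measured) had a median difference of -0.11, and their summed intensity was 1345 and 1558 on Hes1-null arrays, against 1276 and 1767 on wild-type arrays. Within that list the eosinophil granule genes Epx and Prg2 were lower in Hes1-null marrow without passing, with Prg2 at 5.89 and 5.21 on Hes1-null arrays, against 6.59 and 7.85 on wild-type arrays. The list was mixed: 7 of the 10 differences were negative and 3 positive, and the genotypes overlapped for 7. The most positive difference was that of Mcpt8 (0.96, genotypes overlapping).

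Of 20 other type I cytokine receptor chains listed, 17 were measured. By limma 0 passed the adjusted threshold, and 2 were lower and 0 higher at an unadjusted p of 0.05, against 4.78% and 3.51% of all genes. The genotypes did not overlap for 7 lower and 1 higher gene, where 20.6% and 17.4% of all genes did so, and they overlapped for the other 9. Their median difference was -0.12, against -0.02 over all genes. Il6st, which encodes gp130, the shared chain of the interleukin-6 family, lay at 8.66 and 8.47 on Hes1-null arrays, against 10.20 and 9.29 on wild-type arrays (-1.18 ± 0.32, unadjusted p = 0.0125, adjusted p = 0.399 by limma). Il2rb, a beta chain gene of the interleukin-2 and interleukin-15 receptors, lay at 5.87 and 5.45 on Hes1-null arrays, against 6.13 and 6.14 on wild-type arrays (-0.48 ± 0.18, adjusted p = 0.573 by limma). Il12rb1, a chain of the interleukin-12 and interleukin-23 receptors, had a difference of 0.42 ± 0.17, and the leptin receptor gene Lepr had a difference of -0.33 ± 0.14 at levels below the background mark on all arrays, and neither passed.

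**Figure D4:**
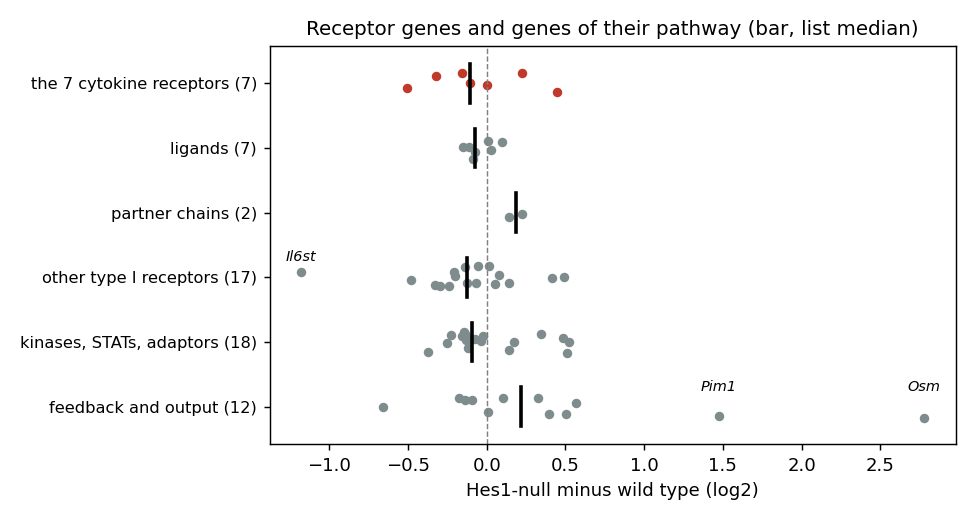
Difference between genotypes on the log2 scale (horizontal axis, Hes1-null minus wild type) for the 7 cytokine receptors in red and for the measured genes of 5 pathway lists in grey, with a bar at each list's median and the number of genes in brackets; vertical scatter within a list has no meaning. The receptors lie between -0.51 and 0.45, and Osm, Pim1 and Il6st are the pathway genes at least 1 log2 unit from 0.

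Genes of the signalling machinery under the receptors (18 of 22 measured) had a median difference of -0.10. By limma 0 passed the adjusted threshold and 1 an unadjusted p of 0.05, against 8.29% of all genes. That gene was Pik3r1, encoding the regulatory subunit of PI3 kinase, at 10.81 and 10.94 on Hes1-null arrays, against 10.43 and 10.28 on wild-type arrays (0.52 ± 0.14, unadjusted p = 0.0107, adjusted p = 0.369 by limma). Cblb, a ubiquitin ligase gene, differed by 0.49 ± 0.21, Stat3 by 0.51 ± 0.30 and the phosphatase gene Ptpn6 by -0.37 ± 0.23, none of which passed. The kinase gene that serves most of these receptors, Jak2, lay at 8.02 and 8.65 on Hes1-null arrays, against 8.39 and 8.43 on wild-type arrays. Stat5a lay at 9.18 and 9.02 on Hes1-null arrays and at 9.11 and 9.15 on wild-type arrays, which overlapped.

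Feedback and output genes of JAK-STAT signalling were all measured (12 of 12), with a median difference of 0.22. The list was chosen with earlier results of these data known, so its median and counts are a description only. None passed the adjusted threshold by limma. At an unadjusted p of 0.05 there were 2 higher (Osm and Pim1) and 1 lower (Bcl6), against 3.51% and 4.78% of all genes. Osm, a cytokine gene induced by STAT5, lay at 9.72 and 10.84 on Hes1-null arrays, against 7.28 and 7.72 on wild-type arrays. Both Hes1-null arrays were far above both wild-type arrays, by 2.78 ± 0.40 (unadjusted p = 0.000649, adjusted p = 0.118 by limma). Pim1, a survival kinase gene, lay at 9.38 and 10.996 on Hes1-null arrays, against 8.42 and 9.01 on wild-type arrays (1.47 ± 0.54, adjusted p = 0.571 by limma). Bcl6, a transcriptional repressor gene, lay at 7.04 and 7.47 on Hes1-null arrays, against 7.98 and 7.85 on wild-type arrays (-0.66 ± 0.21, adjusted p = 0.477 by limma), and Spred2, an inhibitor gene of ERK signalling, differed by 0.57 ± 0.27.

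Cish and the Socs genes of the feedback list overlapped between genotypes, unlike Osm, Pim1 and Bcl6 above. Cish lay at 6.09 and 6.35 on Hes1-null arrays, against 6.38 and 6.33 on wild-type arrays, and Socs2 at 5.05 and 5.58 on Hes1-null arrays, against 5.58 and 5.24 on wild-type arrays. Socs3 was high on 1 array alone, with 6.47 and 8.03 on Hes1-null arrays, against 6.74 and 6.74 on wild-type arrays. Immediate early genes, listed as a sign of sample handling, were higher in Hes1-null marrow, as Osm and Pim1 were. All 10 were measured, and for all 10 the lower Hes1-null array exceeded the higher wild-type array, against 17.4% of all genes. Their summed intensity was 11010 and 17590 on Hes1-null arrays, against 3606 and 4139 on wild-type arrays. Jun was the sole gene of the 10 past the adjusted threshold (2.70 ± 0.16, adjusted p = 0.0231 by limma). The defining genes Fos and Fosb lay at 9.24 and 10.78, and at 9.33 and 10.15, on Hes1-null arrays, against 8.02 and 8.05, and 7.92 and 7.20, on wild-type arrays. Their part in the Osm and Pim1 values was not tested, and an effect of handling and one of genotype cannot be told apart in this design.

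**Figure D5:**
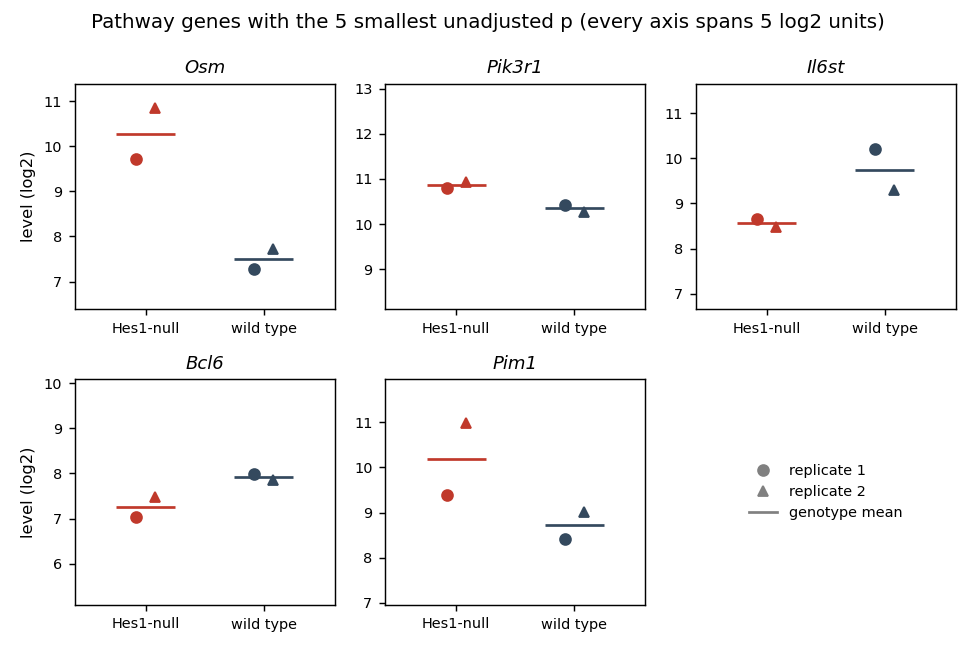
Log2 level on each array of the 5 pathway genes with the smallest unadjusted p, Hes1-null in red left of wild type in dark blue, with circles for replicate 1, triangles for replicate 2 and bars at the genotype mean; every vertical axis spans 5 log2 units. Osm has the widest separation, 9.72 and 10.84 on Hes1-null arrays and 7.28 and 7.72 on wild-type arrays, and none of the 5 passed an adjusted p of 0.05.

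Monocyte and megakaryocyte markers complete the check of other cells in the marrow. Of 13 monocyte and macrophage genes 12 were measured, with a median difference of -0.88 and summed intensities of 13750 and 12990 on Hes1-null arrays, against 18910 and 16890 on wild-type arrays. Their defining genes lay at 7.29 and 6.53 (Cx3cr1) and at 7.76 and 7.60 (Ccr2) on Hes1-null arrays, against 9.51 and 9.17 (Cx3cr1) and 9.79 and 9.39 (Ccr2) on wild-type arrays. The adhesion molecule gene Vcam1 was the sole marker of this list past the threshold (-2.62 ± 0.17, adjusted p = 0.0242 by limma). The differences of 3 of the 12 were positive, those of Cd68 (0.23, genotypes not overlapping), Ly86 (0.10) and C1qa (0.01), and 9 were negative. Megakaryocyte genes (6 of 8 measured) had a median difference of -0.61, and their sums were 607 and 606 on Hes1-null arrays, against 1106 and 1093 on wild-type arrays. The platelet chemokine gene Ppbp lay at 5.28 and 5.01 on Hes1-null arrays, against 6.77 and 7.34 on wild-type arrays, and Pf4 at 4.92 and 5.11 on Hes1-null arrays, against 5.10 and 5.64 on wild-type arrays. Csf2ra and Csf2rb, whose products monocytes carry as well as myeloid progenitors, had differences of -0.11 and 0.22, as given above. Whether these cells take part in the receptor values was not tested.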

How the data were processed

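Each sample of total RNA from leukemic marrow was run on 1 Affymetrix mouse gene array, and the labels give 2 samples for each genotype. The deposited intensities are probe set values made by the authors: per the submitters' processing notes, RMA and Affymetrix Expression Console were used, and versions are not given in the sources used here. They are on a linear scale, so log2 was taken here, with nothing added. Of 35556 probe sets, 21789 carry 1 gene symbol in the platform annotation, 1621 carry several and 12146 are not listed. The probe set with the highest mean was taken for each gene, and all 19938 genes were kept whatever their level. Listed genes without a single-symbol probe set were not analysed here.

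The test was that of limma 3.58.1 under R 4.3.3 (lmFit, eBayes with intensity trend, two-sided, genotype only), with Benjamini-Hochberg adjustment over all genes. Degrees of freedom were 2 (residual) and 3.41 (prior). The fit was also run on simulated arrays whose noise was drawn from that prior, alike in both genotypes. Such a run cannot speak to the wider spread of the Hes1-null arrays. The labels do not say that samples came from separate animals, so p-values measure the spread between these samples, which may be technical. Plots and summaries used Python 3.11.15 and matplotlib 3.10.9.

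The receptor genes and gene lists were chosen with earlier results of these data known. Genes named are the 7 receptors, any pathway gene past the threshold, up to 4 genes per pathway list with the smallest unadjusted p, the nearest patterns and the defining markers. Further pathway genes and markers (Csf2, Csf3, Tslp, Jak2, Stat5a, Cish, Socs2, Socs3, Mmp8, Cxcr2, Ngp, Lcn2, Alas2, Cd79b, Cd28, Mcpt8, Jun, Vcam1, Cd68, Ly86, C1qa, Mpo, Elane, Kit, Flt3, Hoxa9 and Hoxa10), and Xist as a check, were named after their values were seen. Alternatives were the replicate number as a block, quantile normalization, centring, filters on level, other moderation, array weights, an offset of 16, other handling of several probe sets, and leaving out each array.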

Additional observations from a re-analysis of the deposited data

How the results depend on the processing

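No receptor gene passed the threshold by limma under any alternative that keeps all arrays. The lowest adjusted p among these was 0.395, for Csf3r with the filter at the median of level. Of the 11 alternatives that keep all arrays, 8 leave the difference of a receptor gene they test as it is by construction and bear only on its p. The filter at the median of level, among these 8, dropped Epor and Il7r, which it therefore did not test. Under the other 3 (quantile normalization, centring and the offset), all 21 differences kept their direction. With 1 array left out, 3 of 28 values changed sign: the difference ran from -0.028 to 0.034 for Epor, negative both without Hes1-null replicate 2 and (-0.014) without replicate 1 of wild type, and from -0.91 to 0.27 for Il7r. The ranges were 0.14 to 0.75 for Csf2rb2, 0.07 to 0.38 for Csf2rb, -0.30 to -0.02 for Il3ra, -0.16 to -0.06 for Csf2ra and -0.60 to -0.41 for Csf3r. Where an array was left out, the lone array was assumed to vary like the other genotype. The 6 values of the subunit ratios under quantile normalization and the offset moved by less than the spread between replicates.

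The count over all genes was 29. It was 89 with the replicate block, 46 after quantile normalization, 45 with array weights, 17 with the filter at the 25th percentile and 5 with the filter at the median, which test fewer genes, and from 6, without wild-type replicate 2, to 999, without Hes1-null replicate 1. The cause was not tested. The replicate numbers gave no pairing in the labels, deviations of same-numbered arrays correlated at 0.0505 across genes, and the block called 0 receptor genes. Quantile normalization and centring moved the median of all genes by -0.0066 and 0.0059. Dim probe sets (Epor, Il7r and most ligands) limit what a difference can show.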
